A study of Enchytraeus crypticus with 9 samples.

Results

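The comparison set cocoons of the potworm Enchytraeus crypticus that had spent 1 day in cadmium-spiked soil (5 mg Cd/kg) against cocoons kept for 1 day in the same type of soil with no cadmium added. The 6 samples were taken by their labelled treatment, 3 at 5 mg Cd/kg and 3 controls, of 9 samples in the whole series. The soil was LUFA 2.2, a natural standard soil used in toxicity tests, and cocoons were 1 to 2 days old after laying. Every sample was the RNA of 300 whole cocoons hybridised to 1 array. Samples of a group are biological replicates by the series' design text, and p-values therefore measure the spread between pools of cocoons, each on its own array. Each value is an average over a pool, in which fewer cells of a type and less RNA per cell cannot be told apart. Arrays are numbered within their group as in the labels, and 5 mg array 1 is given apart from arrays 2 and 3, because its levels stood apart from those of the other 5 arrays.

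A cocoon of this oligochaete holds several embryos in a nutritive fluid, and the embryos develop inside it until they hatch as juveniles. Cadmium is a metal with no known role in these worms. It binds the sulfur groups of proteins, can take the place of zinc and calcium, and in many animals raises metallothioneins, the small metal-binding proteins, together with heat shock and antioxidant genes. The study used concentrations described by the series as affecting embryonic development, and the comparison asks which transcripts differed at the lower of them after a short exposure.

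The array carried 43750 probes, of which 23177 are named for contigs, assembled transcript sequences, and 20573 for single sequencing reads. No gene name or probe sequence goes with an identifier in the files used here. Transcripts are therefore described by level, detection and kind of identifier, metallothioneins and other responders to metals could not be looked up, and the labelled stage and tissue could not be set against marker genes. A level is the log2 of a probe's background-subtracted brightness minus the 75th percentile of its array, so that 0 is the brightness of that percentile. Levels of different probes are not ranked as amounts of transcript, because probes differ in how strongly they bind.

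Fewer transcripts were seen above background after cadmium. The scanner software marked 19614, 20604 and 23287 probes as well above background on 5 mg arrays 1, 2 and 3, against 28727, 29481 and 26173 on control arrays 1, 2 and 3. Every 5 mg array lay below every control, and the means were 21168 ± 1900 at 5 mg Cd/kg and 28127 ± 1734 in controls (SD, n = 3 each; two-sided exact permutation p = 0.1, and 3 against 3 cannot go lower). The looser flag of a signal above background gave 30909, 31105 and 32872 probes at 5 mg Cd/kg, against 37641, 37647 and 35297 in controls.

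Local background moved with this count, and brightness did not do so on every array. The mean local background was 43.8, 38.4 and 35.3 intensity units on the 5 mg arrays, against 29.9, 31.2 and 35.2 on the controls, again with no overlap (two-sided exact permutation p = 0.1). The 75th percentile of the signal was 38.3, 50.5 and 84.9 on the 5 mg arrays, against 78.1, 74.4 and 74.5 on the controls (two-sided exact permutation p = 0.4). By this percentile arrays 1 and 2 were dimmer than every control and array 3 was brighter, while the median signal was 7.23, 7.41 and 11.3 on the 5 mg arrays, against 15.6, 15.0 and 13.6 on the controls, and did not overlap. The part of background and brightness in the loss of detection was not tested.

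**Figure D1:**
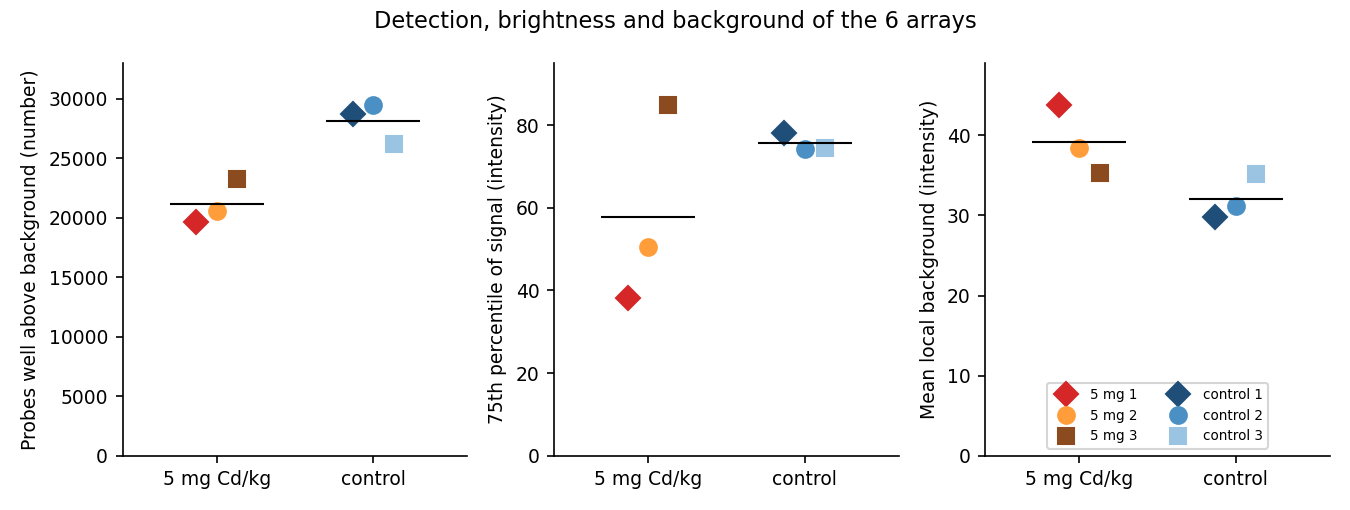
Number of probes well above background, 75th percentile of the processed signal and mean local background for each array, with 5 mg Cd/kg on the left and control on the right of each panel. Points are arrays and lines are group means (n = 3 each). The 5 mg arrays hold 19614 to 23287 detected probes, all below the controls at 26173 to 29481, and their local background of 35.3 to 43.8 lies above that of the controls.

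The loss had a pattern over the 5 mg arrays. Of the 25443 probes above background on all 3 controls, 17111 (67.3%) stayed above it on every 5 mg array, and 2632 (10.3%) were above it on none. The 2632 make up 6.02% of all probes on the array, while 14 probes (0.032%) showed the opposite, detected on every 5 mg array and no control. Losses on a single array were most frequent on array 1: 2124 probes were missing there and present on arrays 2 and 3, against 1172 missing only on array 2 and 341 missing only on array 3.

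The probes lost on all 3 arrays had been dim in controls. Their median control level was -2.67, against 0.67 for the 17111 probes detected everywhere, and 2 of the 2632 had a control level above 0. Contigs made up 64.8% of the lost probes, against 51.4% of those detected everywhere. A dim probe needs a smaller fall to drop below background, so these low levels follow from how a loss is defined, and the fall of a lost probe has only a lower bound.

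The test of levels covered the 25566 probes with detection on every array of at least 1 group, 13677 of them contigs. The controls brought in most of these: 8332 passed through the control arrays alone and 123 through the 5 mg arrays alone. A probe that entered through 1 group alone missed the flag on at least 1 array of the other. Such probes tend to be dimmer there, so the balance of calls over all tested probes leans towards lower by this filter. The lowest level marked well above background was -2.28, -2.72 and -3.32 on 5 mg arrays 1, 2 and 3. On control arrays 1, 2 and 3 it was -3.84, -4.09 and -3.49. A probe at an unchanged level could therefore be marked on the controls and missed at 5 mg Cd/kg. Limma fitted the 6 arrays with 4 residual degrees of freedom, and a probe was called at a Benjamini-Hochberg adjusted p under 0.05, two-sided.

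At 5 mg Cd/kg 902 probes were higher (3.53% of those tested) and 452 were lower (1.77%) than in controls in limma, together 1354 probes (5.3%). The median change on the log2 scale was 1.82 among the higher probes and -1.87 among the lower, and 296 and 164 of them passed 4-fold. The smallest called change was 1.28 on the log2 scale in either direction. At an unadjusted p under 0.05 the same fit held 8614 probes (33.7%). Over all tested probes the median log2 fold change was -0.27, and 9034 probes (35.3%) were fitted more than 2-fold from control.

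The direction of calls is relative to the scale. On the 75th percentile of all probes 66.6% of calls were higher. With the spike-in RNAs as the scale, 187 of 1217 calls (15.4%) were higher and the median of all tested probes was -0.64. With the 75th percentile of the probes detected on all 6 arrays as the scale, 251 of 1577 calls (15.9%) were higher and the median was -0.69. Among the probes detected on all 6 arrays, tested alone on the main scale, 1975 were higher and 464 lower.

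The 6 arrays separated many more probes than the test called. All 3 arrays at 5 mg Cd/kg lay above every control for 5634 of 25527 tested probes with no flagged spot (22.1%) and below every control for 5381 (21.1%), together 43.2%. The split by direction depends on the processing. On the spike-in scale 2285 were higher and 9414 lower. On the 75th percentile of the probes detected on all 6 arrays these were 2874 and 8894, and with the background correction normexp 3813 and 1636. Without array 1 the rule asks less, and it was met by 7428 higher (29.1%) and 9362 lower probes (36.7%), together 65.8%. The filter leans the lower count upward, since 8332 probes entered through the controls alone. Groups more than 2-fold apart, from the nearest 5 mg array to the nearest control, were fewer: 856 probes were higher by that distance and 468 lower, with 781 and 365 of them called. The distance exceeded 4-fold for 118 higher and 10 lower probes.

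The probes with the largest called changes among those detected on all 6 arrays show what such a difference looked like. Probe contig19597 had levels of 2.79, 2.42 and 2.21 on 5 mg arrays 1, 2 and 3, against -1.86, -1.02 and -1.20 on the controls. The groups lay far apart and array 1 was the highest of the 5 mg arrays by a small margin. Its log2 fold change was 3.84 with an SE of 0.36 (limma adjusted p = 0.0166).

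Probe GYUW2K401D0TJN had levels of 4.66, 4.24 and 3.65 on 5 mg arrays 1, 2 and 3, against -0.09, 0.80 and 0.33 on the controls. It was near the array's 75th percentile in control cocoons and among the bright probes after cadmium, again with array 1 highest. Its log2 fold change was 3.83 with an SE of 0.40 (limma adjusted p = 0.0166).

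In the other direction, probe contig02266 had levels of -0.23, 0.46 and 0.38 on 5 mg arrays 1, 2 and 3, against 5.35, 5.49 and 5.19 on the controls. The controls lay within a narrow range and all 3 cadmium arrays fell to about the 75th percentile. Its log2 fold change was -5.14 with an SE of 0.33 (limma adjusted p = 0.0129), the largest fall among called probes detected on all 6 arrays.

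Probe GYUW2K401C6JDK had levels of 0.27, -0.52 and 2.05 on 5 mg arrays 1, 2 and 3, against 6.14, 3.20 and 5.13 on the controls. The groups did not overlap, but both were wide: the nearest arrays, 5 mg array 3 and control array 2, were far closer to each other than the group means. Its log2 fold change was -4.23 (SE 0.88), at an adjusted p of 0.0445 in limma. With no filter on dim probes its adjusted p in limma was 0.0749, in a range of 0.0244 to 0.248 over 18 alternatives.

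**Figure D2:**
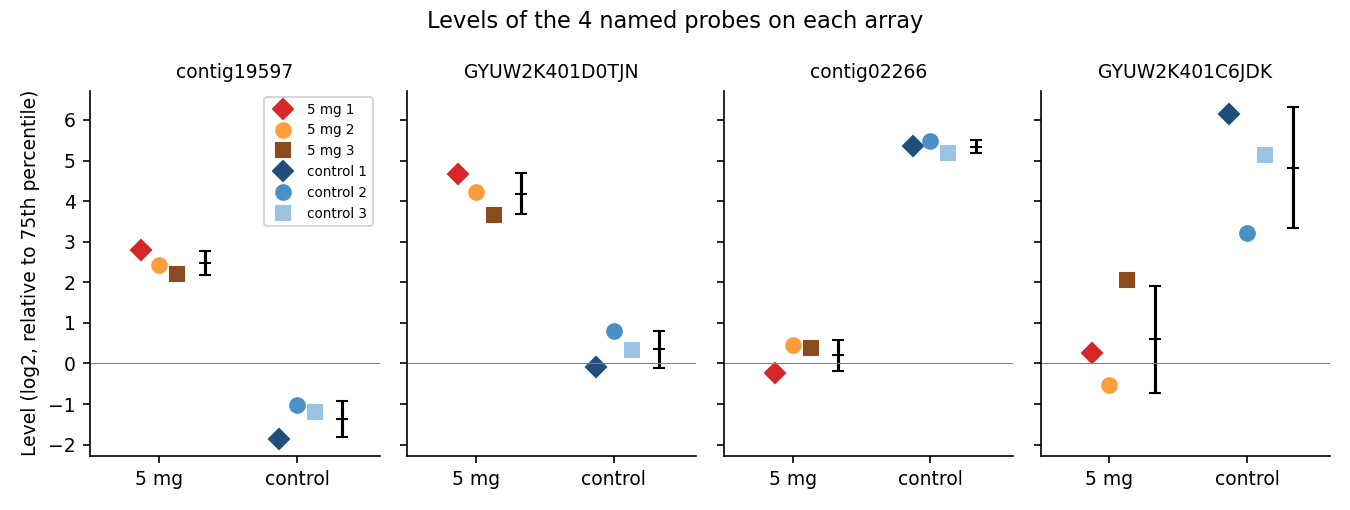
Level of each of the 4 named probes on each array, as log2 relative to the array's 75th percentile, with 5 mg Cd/kg left of control in every panel. Points are arrays, and bars are the mean and SD of the group (n = 3). In contig19597 and GYUW2K401D0TJN the 5 mg arrays lie above all controls, and in contig02266 and GYUW2K401C6JDK below them.

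All 4 probes lost the call in limma when a control array or 5 mg array 3 was left out, as every probe did. Without control array 1, 2 or 3, or without 5 mg array 3, limma called 0 probes, with 4796, 5004, 4540 and 6882 at an unadjusted p under 0.05. No named probe changed direction under any of its 18 alternatives. The log2 fold change stayed between 2.01 and 4.0 for contig19597, between 3.02 and 4.10 for GYUW2K401D0TJN, between -5.56 and -3.60 for contig02266 and between -5.04 and -2.71 for GYUW2K401C6JDK.

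Differences from control varied with brightness. Dim probes that entered the test through the controls alone lean low at 5 mg Cd/kg by selection. Differences were therefore taken over the 17111 probes detected on all 6 arrays. These probes were divided into 10 classes of near equal size by their mean level over all 6 arrays, class 1 the dimmest. In class 10 the median difference from the control mean was 0.70, 0.52 and 0.56 on 5 mg arrays 1, 2 and 3, while the controls lay between -0.03 and 0.02. Each control is part of that mean, which makes its own difference smaller. In class 2 it was 0.15, -0.36 and -0.66 on the 5 mg arrays, with the controls between -0.04 and 0.04. All 3 cadmium arrays were above the controls in classes 5 to 10, arrays 2 and 3 were below them in classes 1 to 4, and array 1 was above them in every class, all on the scale of the 75th percentile. Relative to it the spike-in RNAs lay at 5.59, 5.60 and 4.65 on the 5 mg arrays, against 5.07, 4.83 and 4.83 on the controls, so on their scale the curves of arrays 1 and 2 lie lower and that of array 3 higher by a fixed amount, with signs that can differ and shapes that do not. Class 1 holds only dim probes that stayed above background, which leaves out those that fell below it.

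The distance between the median levels of classes 10 and 1 does not depend on a scale set by 1 factor per array. Among the probes detected on all 6 arrays it was 8.12, 8.64 and 8.90 on 5 mg arrays 1, 2 and 3, against 8.02, 7.98 and 8.19 on the controls (two-sided exact permutation p = 0.2). Array 1 lay within the range of the controls and arrays 2 and 3 above it. Over all tested probes, classed in the same way, it was 9.34, 9.82 and 10.2 on the 5 mg arrays, against 8.38, 8.42 and 8.51 on the controls (two-sided exact permutation p = 0.1). That larger distance includes the selection named above, since no probe of its class 1 was above background on all 6 arrays. The part of local background in the levels of dim probes was not tested.

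**Figure D3:**
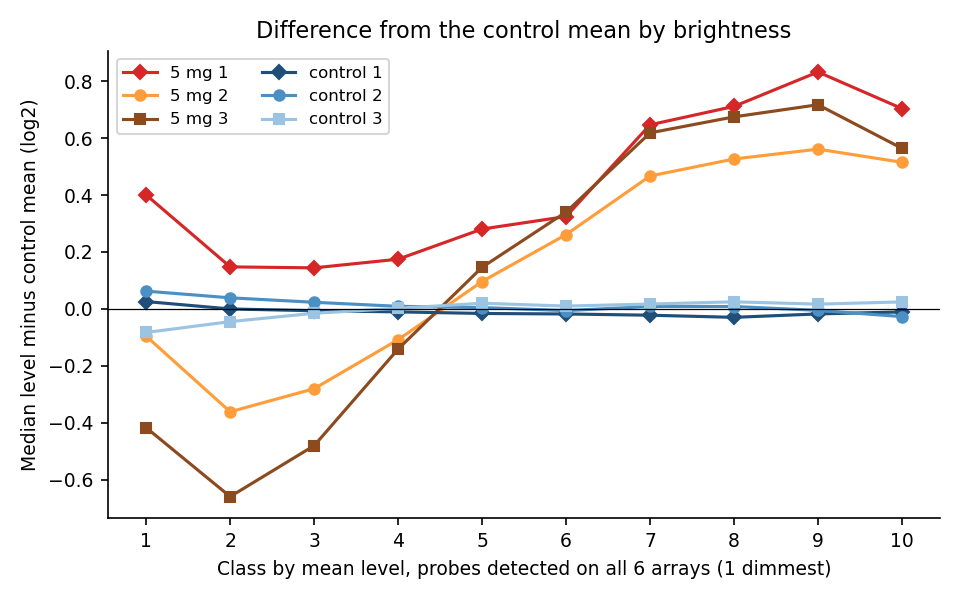
Median over probes of the level minus the control mean (log2) for each array, in 10 classes of the 17111 probes detected on all 6 arrays by mean level, from dimmest to brightest. On the scale of the 75th percentile the 5 mg arrays lie at 0.15, -0.36 and -0.66 in class 2 and at 0.70, 0.52 and 0.56 in class 10. The 3 controls, which are part of the control mean, stay near 0 throughout.

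Most higher calls were detected on all 6 arrays and most lower calls were not. Of the 902 higher probes 843 were detected on all 6 arrays, against 133 of the 452 lower ones. Of all 25566 tested probes 17111 were. The filter leans this way, since 8332 probes entered through the controls alone and 123 through the 5 mg arrays alone. Most of the lower probes thus missed the flag on at least 1 array, and 223 of the 452 on every 5 mg array. Where it was missed the level after cadmium may be at or near background, and the fitted fold change is no measure of the fall. Among probes detected on all 6 arrays, the 5 brighter classes held 491 higher and 44 lower calls, and the 5 dimmer ones 352 and 89. The median control level was 0.08 for all 902 higher probes and -1.29 for all 452 lower ones.

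Limma called 0 of the 100 brightest probes with all 6 arrays, against 5.3% of all tested probes. At an unadjusted p under 0.05 were 28 of the 100, near the 33.7% of all tested probes. Without array 1 limma called 16 of the 100 higher and 1 lower, against 15% and 23.2% of all tested probes. The 100 probes spanned mean levels of 8.82 to 11.7, and their log2 fold changes lay between -1.01 and 1.35 with a median of 0.67. Their median difference from the control mean was 1.08 on array 1, 0.56 on array 2 and 0.49 on array 3, and 80, 80 and 96 of the 100 were above the control mean on arrays 1, 2 and 3. Array 1 was the highest on this scale only: on the spike-in scale the medians were 0.40, -0.13 and 0.74 on arrays 1, 2 and 3.

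The 5 mg arrays differed more among themselves than the control arrays did. Each pool was on its own array, so the spread of pools and that of arrays cannot be told apart. A tested probe had a median SD of 0.69 over the 3 arrays at 5 mg Cd/kg, 0.45 over arrays 2 and 3 and 0.20 over the controls. The SD was larger than in controls for 91.3% of probes over all 3 arrays at 5 mg Cd/kg and for 75.4% over arrays 2 and 3. The correlation of levels across probes, which share array and brightness, was 0.860 between 5 mg arrays 1 and 2, 0.901 between 1 and 3 and 0.950 between 2 and 3, against 0.988 to 0.990 between controls. With the controls, array 1 correlated at 0.857 to 0.871, array 2 at 0.933 to 0.945 and array 3 at 0.917 to 0.925.

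Array 1 correlated less with arrays 2 and 3 than these did with the controls. Among these 6 arrays it was the only one on slide 3, while array 2 shared slide 1 with control arrays 1 and 3, and array 3 shared slide 2 with control array 2. The slides of the other samples of the series were not looked up. Array 1 was alone in its scan session among the 6, and so were array 3 and control arrays 1 and 2. Its spike-in spots repeated less well, with a median coefficient of variation of 7.96%, against 2.51% to 3.77% on the other 5 arrays. The 8 detected spike-in RNAs, added as known mixtures, departed from their control means with an SD of 0.30 on array 1, 0.23 on array 2 and 0.28 on array 3, and 0.08 to 0.12 on the controls. Each control is part of the mean it is set against, which makes its own departure smaller. Over all tested probes, the SD of the difference from the control mean was 1.49 on array 1, 1.06 on array 2 and 1.26 on array 3.

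The departure of array 1 was mostly downward and took in bright transcripts. The part of slide, scan session and spot quality in it was not tested. On 1964 tested probes array 1 was more than 4-fold below both other 5 mg arrays, and on 271 it was more than 4-fold above both. For array 2 these counts were 465 and 139, for array 3 260 and 39, and for the controls, each set against the other 2, 0 to 5 below and 10 to 16 above. In the 2 brightest of 10 such classes of all tested probes, 776 of 5113 probes were more than 4-fold lower on array 1 than on both others, against 71 on array 2 and 2 on array 3.

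**Figure D4:**
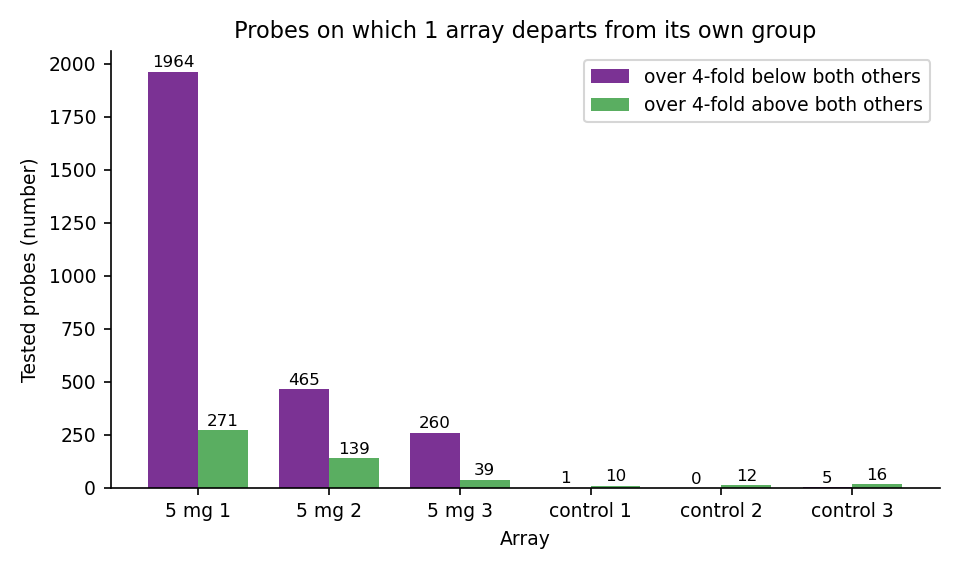
Number of tested probes on which an array was more than 4-fold below (purple) or above (green) both other arrays of its own group, for the 5 mg arrays on the left and the controls on the right. Array 1 of the 5 mg group has 1964 probes below and 271 above, and the controls have at most 5 below and 16 above.

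The 1964 probes were near their control level on the other 2 arrays. Their median level was -1.19 on array 1, 2.59 on array 2 and 1.98 on array 3, against 2.14, 2.00 and 2.15 on control arrays 1, 2 and 3. For 1552 of them the mean of arrays 2 and 3 was within 2-fold of the control mean. Of all 25566 tested probes, 9896 (38.7%) were more than 2-fold from control without array 1, and the rest were not. Array 1 was below every control on 1958 of the 1964 probes and not well above background on 749 of the 1964. Contigs made up 24% of the 1964 probes, against 53.5% of all tested probes, and 76.8% of the 271 probes that were higher on array 1. These lists were chosen by the levels of array 1 against those of arrays 2 and 3, and are given as a description of these arrays.

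Further down, 778 probes were more than 8-fold lower on array 1 than on both others. Their median levels were -1.85 on array 1, 2.70 on array 2 and 2.16 on array 3, against 2.31, 2.13 and 2.27 on the controls. Of these probes 372 were not well above background on array 1, so their fall there has only a bound, and the rest were measured above it.

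Without array 1 the test made more calls. With arrays 2 and 3 against the 3 controls, limma called 9759 of the same 25566 probes (38.2%), 3830 higher (15%) and 5929 lower (23.2%). All 902 higher and all 452 lower probes of the 6 arrays were among them. Higher calls made up 39.2%, against 66.6% with all 6 arrays, but this balance rests on the filter and the scale. Among probes detected on all 6 arrays, tested alone, they made up 56.4% (4020 higher and 3102 lower), against 81.0% with array 1, and on the spike-in scale 13.9%, against 15.4%. The median log2 fold change was 1.23 for the higher and -1.41 for the lower probes, the smallest called change 0.71, and the median SE of a tested probe 0.31, against 0.42 with all 6 arrays. This count also fell to 0 in limma without any 1 of the control arrays, with 9638, 9560 and 9465 probes at an unadjusted p under 0.05.

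Among these calls 3518 of the 3830 higher probes and 2799 of the 5929 lower ones were detected on all 6 arrays. Of all 25566 tested probes 17111 were, and the filter leans this way here too. Of those detected, the 5 brighter classes held 2269 higher and 678 lower probes, and the 5 dimmer ones 1249 and 2121. The probes were called on arrays 2 and 3, so the levels of these arrays on them are extreme by selection and array 1 is not set against them here.

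**Figure D5:**
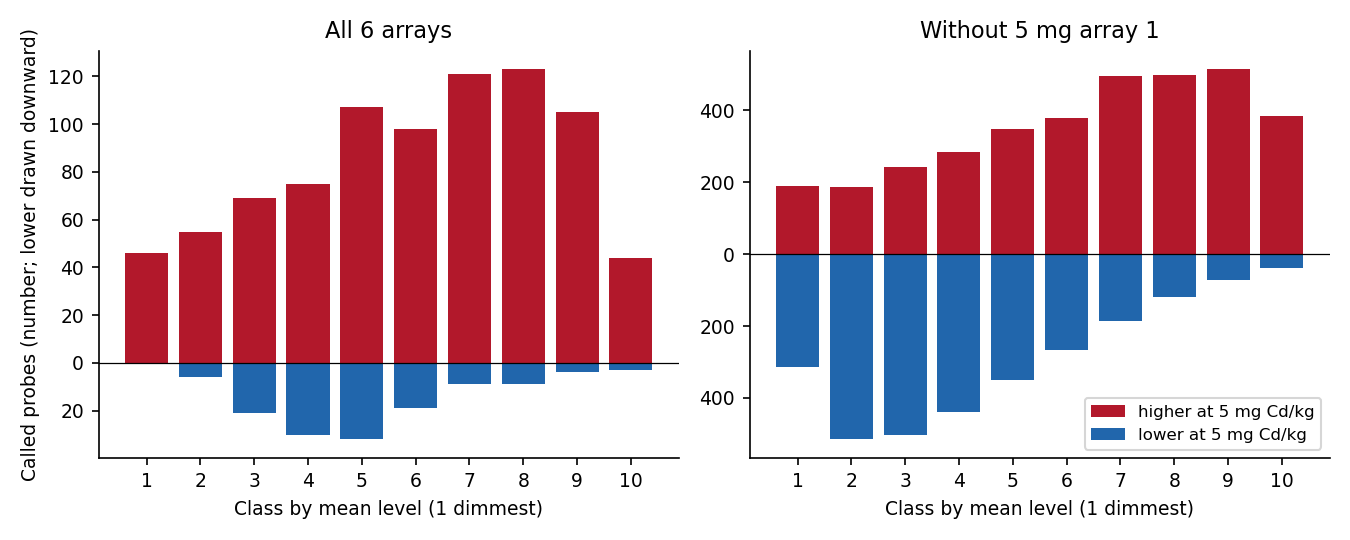
Number of called probes in each of 10 classes of mean level, among the 17111 probes detected on all 6 arrays, with higher probes drawn upward and lower probes downward, for all 6 arrays (left) and without 5 mg array 1 (right, on its own axis). The 5 brighter classes hold 491 higher and 44 lower calls on the left, and 2269 and 678 on the right.

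Single arrays departed from the control mean on many more probes than 1 control did from the others. More than 2-fold from the control mean were 6237 higher and 5428 lower probes on array 1, 3559 and 5176 on array 2, and 4784 and 7976 on array 3. A control set against the other 2 had 91 to 286 higher and 120 to 214 lower probes by that rule.

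Differences were also taken between arrays of the same slide. On slide 1 (array 2 against control arrays 1 and 3) the 902 higher probes had a median difference of 1.70 and the 452 lower ones of -1.89, and on slide 2 (array 3 against control array 2) 1.75 and -1.96. All 902 and all 452 kept their direction on both slides, on the arrays that also selected them. Within the 1 scan session that held both groups (array 2 and control array 3) 901 of the 902 and all 452 kept it, with medians of 1.76 and -1.91. With slide as a block limma called 8282 probes, 3070 higher and 5212 lower. That block takes up array 1, so the count rests on arrays 2 and 3.

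Pairs of differences that share no array were then set side by side over 25527 probes, as a description across probes that share arrays and brightness. Array 2 within slide 1 and array 3 within slide 2 had the same sign on 77% of probes and correlated at r = 0.598. Array 1 minus control arrays 1 and 3 had the same sign as array 3 within slide 2 on 70.1% (r = 0.450). Array 1 minus control array 2 had the same sign as array 2 within slide 1 on 60% (r = 0.226). Where both differences passed 2-fold, the shares were 95.5% of 5284 probes, 89.7% of 5885 and 77.2% of 3670. By these shares, which include the lean of the filter, array 1 was nearer to array 3 than to array 2. Arrays 2 and 3 were nearest to each other.

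Contig and read-named probes were called in different shares. Of 13677 tested contigs, 394 were called higher (2.88%) and 302 lower (2.21%). Of 11889 read-named probes, 508 were called higher (4.27%) and 150 lower (1.26%). Without array 1, 31.1% of contigs and 14.1% of read-named probes were called lower, and 11.6% and 18.9% higher. These shares are over all tested probes, where the filter leans dim probes towards lower. Contigs were the dimmer kind, with a median level of -0.87, against -0.18 for read-named probes. The median log2 fold change was -0.44 for contigs and -0.02 for read-named probes over 6 arrays, and -0.59 and 0.22 without array 1. Among probes detected on all 6 arrays it was -0.02 and 0.39 over 6 arrays, and -0.05 and 0.48 without array 1.

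The difference between the kinds varied with brightness among the probes detected on all 6 arrays. In class 3 the median log2 fold change was -0.55 for contigs and 0.40 for read-named probes over 6 arrays, and -0.82 and 0.36 without array 1. In class 10 it was 0.77 for contigs and 0.10 for read-named probes over 6 arrays, and 0.57 and 0.44 without array 1. Contigs were the lower kind in classes 1 to 7 and the higher kind in classes 8 to 10 over 6 arrays, while without array 1 they were slightly the lower kind in class 8 too. The difference between the kinds was not tested.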

How the data were processed

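Each sample was the Cy3-labelled RNA of 300 cocoons on its own 1-colour Agilent array, per the labels' protocols. Feature Extraction 10.7.3.1 from Agilent wrote the deposited intensity values, per the file headers. They are linear brightness after background subtraction, and arrays were not scaled to each other. Deposited flags and codes mark detection and spot quality, per the file headers. The value table deposited by the authors holds the same intensity values, rounded (largest difference 0.497%). The medians of its columns were 7.23, 7.41 and 11.3 on 5 mg arrays 1 to 3 and 15.6, 15.0 and 13.6 on control arrays 1 to 3.

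The 1417 control features were left out, no spot was saturated, and 55 flagged spots were set missing (39 in tested probes), so such a probe was fitted on fewer arrays. Levels were log2 of the signal minus the array's 75th percentile. Probes well above background on all 3 arrays of either group were fitted with limma 3.58.1 (R 4.3.3, data.table version 1.17.8; lmFit, eBayes), with Benjamini-Hochberg adjustment over all tested probes. Descriptions and plots used Python 3.11.15, pandas 2.3.3, numpy 2.4.6 and matplotlib 3.10.9. The fit was tested on simulated data. Only these 6 arrays were used, and their number limits the precision.

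Named probes were, per direction, the 2 largest called changes among probes above background on all 6 arrays. Gene lists were set aside, because the files used here do not name the probes. The comparison, rules and tests were chosen with earlier results of these data known. Alternatives covered background correction, scaling, filters, flags, blocks, weights and each array left out. The files have no mean signal column, so normexp used the median signal. The alternatives for the level distance, the brightness classes among probes detected on all 6 arrays and the spike-in scale for the 100 brightest probes were chosen after seeing the data.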

Additional observations from a re-analysis of the deposited data

How the results depend on the processing

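The 1354 calls of the 6 arrays became 901 with normexp, 166 with no filter on dim probes, 2439 among probes detected on all 6 arrays, 8282 with slide as a block and 7662 with array weights. Leaving out 1 array gave 0 to 9759: 0 when it was a control array or 5 mg array 3, 6388 when it was 5 mg array 2, and 9759 when it was 5 mg array 1. Arrays 2 and 3 against control gave 9759 calls, against 99 with normexp (98 higher), 6234 with quantile normalization, 6144 on the spike-in scale, 3445 with no filter and 0 to 17518 with 1 array left out. The highest value leaves 1 cadmium array, which is then assumed to vary like a control. The share of higher calls, 66.6% with 6 arrays, was 98.9% with normexp, 89.8% with no filter, 81.0% among probes detected on all 6, 37.7% with array weights and 37.1% with slide as a block.

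Groups separated for 43.2% of probes, for 21.3% with normexp, and for 46.6% to 65.8% with 1 array left out, which eases the rule. The median log2 fold change of all tested probes, -0.27, was 0.17 with no filter and 0.22 among probes detected on all 6 arrays. The 2632 lost probes became 988 with the looser detection flag and 2701 to 3873 with 1 array left out. The difference in detected probes, -6959, was -5233 with that flag and -8018 to -6181.5 with 1 array left out. The level distance between bright and dim probes, 1.34, was 0.49 among probes detected on all 6 arrays and 0.54 with quantile normalization. With normexp it was 1.52, but the groups overlapped (5.28, 5.76 and 6.44 on the 5 mg arrays, against 3.49, 5.74 and 3.71 on the controls; two-sided exact permutation p = 0.2). In the dimmest class array 1 differed from control by -0.51 over all tested probes and by 0.40 among those detected on all 6 arrays. The median of the 100 brightest probes on array 2, 0.56, was -0.13 on the spike-in scale. The cause of these changes was not tested.

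The labels link same-numbered samples by nothing but the number. The deviations of same-numbered samples correlated at r = -0.10, -0.06 and 0.11 over 25527 probes. Best correlated were 5 mg array 1 with control array 2, 5 mg array 2 with control array 1, and 5 mg array 3 with control array 3. With 3 arrays per group these values cannot settle whether samples were paired. The replicate block called 95 probes, 91 higher and 4 lower. The scan session as a random block could not be fitted, since 5 sessions held 6 arrays. Flagged spots kept, the series table and eBayes with trend gave 1318, 1357 and 1217 calls. Probes near background have only a bound on their fall.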
